A study of Apis mellifera carnica with 38 samples.

Results

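The genes described here were 3 members of the insect extracellular protease cascades, *serine protease snake* (*LOC724250*, GeneID 724250), *proclotting enzyme* (*LOC726126*, GeneID 726126) and *antitrypsin* (*LOC100578030*, GeneID 100578030), out of 12332 genes counted. They were selected with results of these data in view. *Serine protease snake* and *antitrypsin* were chosen for their levels in fat bodies after injection of seminal fluid or semen, set against injection of Hayes solution, and *proclotting enzyme* for its level in brains under the same comparisons. The values of those comparisons are therefore given as a description without a test.

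Honey bee queens (*Apis mellifera carnica*) were non-injected virgins (V) or virgins whose abdominal hemocoel was injected with Hayes solution (HS), with seminal fluid (SF) or with whole semen (SE). Hayes solution is the saline used to dilute semen, seminal fluid was the supernatant of diluted semen after centrifugation, and the semen was pooled from drones of several colonies. Queens were unmated sisters reared from a source colony whose queen had been inseminated with a single drone, were treated about a week after adult emergence and were collected within the following week. No anaesthetic was used, and the V queens received no injection, so that injection and the injected fluid cannot be told apart in comparisons with V queens. RNA from fat bodies was sequenced in 20 libraries, 5 for each treatment, and RNA from brains in 18 libraries, from 5 V, 5 HS, 3 SF and 5 SE queens. The tissue called fat body here was the eviscerated abdominal cuticle with the fat body that lines it, and not fat body alone. Each library was 1 queen's tissue.

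In many arthropods, clip-domain serine proteases circulate in the hemolymph as inactive precursors and activate each other in sequence after wounding or infection. Such cascades end in cleavage of the Toll ligand Spätzle, in melanization through prophenoloxidase, or, in horseshoe crabs, in clotting of the hemolymph. Serpins are suicide inhibitors that trap an active protease and so limit these cascades. In *Drosophila*, Snake acts upstream of Easter in the cascade that activates Spätzle during dorsal-ventral patterning of the embryo. The proclotting enzyme was named for the horseshoe crab protease that converts coagulogen to a clot, and antitrypsins are serpins named for a vertebrate inhibitor of serine proteases. The insect fat body, which has roles comparable to those of liver and adipose tissue, secretes many hemolymph proteins of this kind.

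In the Amel_HAv3.1 assembly, *serine protease snake* lay on chromosome 15 from 3812648 to 3815066 and *proclotting enzyme* on the same chromosome from 7690528 to 7693016. *Antitrypsin* lay on chromosome 11 from 6468018 to 6485934. The annotation gave 1 transcript each for the protease genes and 9 for *antitrypsin*, whose reads were counted together. No other annotated gene overlapped any of these genes.

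Fat body libraries held 4832119 to 29963718 reads counted on genes, and brain libraries 8699477 to 25753740. The unaligned share, which is the percent of a library's reads that did not align to the bee genome, was 3.64 to 5.13% in V fat bodies and 49.3 to 71.6% in the 15 injected fat bodies. It was 4.05 to 6.08% in 5 brains (V queens C64, C68 and C77, SF queen SP16 and SE queen S83) and 22.1 to 53.6% in the other 13. The study found reads of Deformed Wing Virus in these libraries, which were not analysed here. The summed level of 4 brain markers was 1767 to 2264 CPM (reads per 1000000 reads counted on genes) in brains and 331 to 530.2 CPM in fat bodies. That of 5 fat body markers, among them *vitellogenin*, was 42427 to 99671 CPM in V fat bodies, 12395 to 51182 CPM in injected fat bodies and 379 to 12664 CPM in brains. CPM values were scaled within a tissue by trimmed mean of M-values (TMM) factors, and they compare a gene between libraries, not genes with each other. In bulk tissue, fewer cells of a type and less RNA per cell cannot be told apart.

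In fat bodies, *serine protease snake* and *antitrypsin* were counted least in V queens, at an intermediate level in HS queens and most in SF and SE queens. *Proclotting enzyme* ran the other way, from a narrow range in V queens to its lowest values in SE queens. Where groups are said below not to overlap, how many of all genes did likewise is not given here.

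The level of *serine protease snake* was 5.13 CPM in V queen C20, 3.69 in C49, 1.52 in C64, 1.82 in C68 and 2.36 in C77. In HS queens it was 5.29 CPM in H51, 6.09 in H53, 7.96 in H73, 17.4 in H74 and 9.37 in H75. All 5 HS fat bodies were above all 5 V fat bodies, with H74 well above the other HS queens. It was 37.6 CPM in SF queen SP1, 76.6 in SP16, 20.6 in SP35, 31.6 in SP76 and 23.8 in SP79. The level in SE queens was 25.8 CPM in S24, 16.8 in S27, 40.2 in S29, 23.7 in S38 and 27.9 in S83. All SF values were above all HS values, and 4 of 5 SE values were, S27 being below H74.

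Means for *serine protease snake* were thus 2.90 ± 1.5 CPM (V), 9.22 ± 4.83 (HS), 38.0 ± 22.6 (SF) and 26.9 ± 8.53 (SE) in fat bodies (SD, n = 5 each). As the comparisons that chose it, SF queens were at a log2 fold change of 2.05 (standard error 0.37) and SE queens at 1.53 (standard error 0.37) as compared to HS queens. As compared to V queens, *serine protease snake* was upregulated in HS queens (log2 fold change 1.69, standard error 0.41, adjusted p = 0.017), SF queens (3.74, standard error 0.41, adjusted p = 3.08e-06) and SE queens (3.23, standard error 0.41, adjusted p = 1.34e-05) by edgeR's quasi-likelihood test with Benjamini-Hochberg adjustment over all 8403 genes retained. Of those genes, 7.63% were called at an adjusted p under 0.05 for HS, 28.1% for SF and 33.4% for SE queens as compared to V queens. These 3 comparisons share the V libraries, and for *serine protease snake* and *antitrypsin* they share libraries with the comparisons that chose the genes. Both genes were chosen as high in these SF and SE libraries, so those p-values against V queens are no separate test. Without H74, the HS difference was 1.32 (standard error 0.41) and was no longer called by edgeR (adjusted p = 0.0638).

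**Figure D1:**
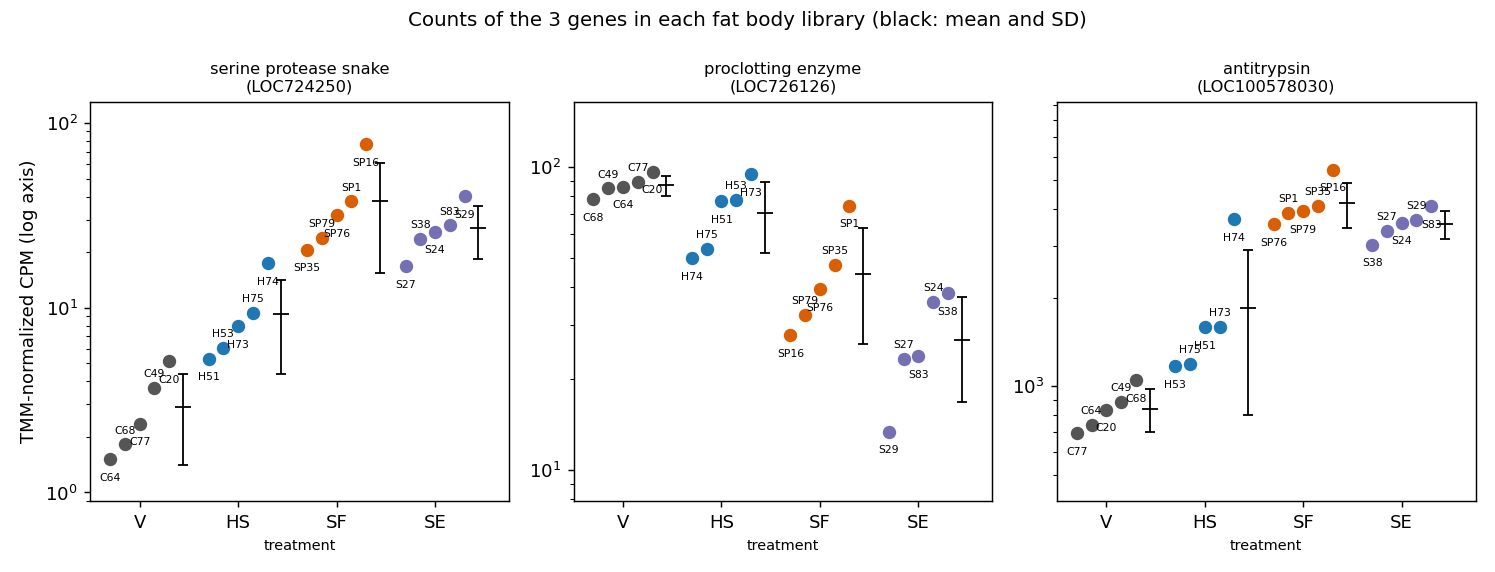
TMM-normalized CPM of each gene (vertical log axis) in the 20 fat body libraries by treatment, 1 point per queen, with the group mean and SD in black. *Serine protease snake* spans 1.52 to 5.13 CPM in V and 20.6 to 76.6 CPM in SF queens, whereas *proclotting enzyme* spans 78.1 to 96.3 CPM in V and 13.4 to 38.3 CPM in SE queens.

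*Antitrypsin*, the serpin, was at 834 CPM in the fat body of V queen C20, 883 in C49, 742 in C64, 1051 in C68 and 692 in C77. In HS queens it was at 1583 CPM in H51, 1173 in H53, 1594 in H73, 3681 in H74 and 1193 in H75. Again all HS values were above all V values, and H74 stood above the remaining HS queens, at a level that SF and SE queens held. It was at 3872 CPM in SF queen SP1, 5420.1 in SP16, 4094 in SP35, 3546 in SP76 and 3920.4 in SP79. In SE queens its level was 3588 CPM in S24, 3374 in S27, 3677 in S29, 3021 in S38 and 4086 in S83. Because of H74, only 4 of 5 SF values and 1 of 5 SE values were above every HS value.

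Mean fat body levels of *antitrypsin* were 840.4 ± 139 CPM (V), 1845 ± 1046 (HS), 4171 ± 726 (SF) and 3549 ± 392 (SE) with n = 5 each (SD), and 1386 ± 234 CPM in HS queens without H74 (SD, n = 4). The log2 fold changes that chose it were 1.18 (standard error 0.26) in SF and 0.94 (standard error 0.26) in SE as compared to HS queens. Its SF and SE levels were thus selected as high, so tests of them against V queens are no separate support. *Antitrypsin* was upregulated as compared to V queens by 1.13 for HS (standard error 0.24, adjusted p = 0.00726), 2.31 for SF (standard error 0.25, adjusted p = 2.44e-06) and 2.08 for SE queens (standard error 0.25, adjusted p = 6.59e-06), on the log2 scale by edgeR.

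*Proclotting enzyme* was at 96.3 CPM in the fat body of V queen C20, 84.8 in C49, 85.9 in C64, 78.1 in C68 and 89.4 in C77. In HS queens it was at 77.2 CPM in H51, 77.7 in H53, 94.6 in H73, 50.01 in H74 and 53.5 in H75. The HS and V fat bodies overlapped through H73 alone, and H74, the highest HS queen for the other genes, was the lowest here. It was at 74.4 CPM in SF queen SP1, 27.9 in SP16, 47.6 in SP35, 39.5 in SP76 and 32.5 in SP79. In SE queens its level was 35.8 CPM in S24, 23.3 in S27, 13.4 in S29, 38.3 in S38 and 23.7 in S83. All SE values were below all HS values, all SF and SE values were below all V values, and the SF and HS ranges overlapped through SP1. S29, with the lowest *proclotting enzyme* value, had the highest *serine protease snake* value of the SE queens, and SP16 was likewise the lowest and the highest of the SF queens.

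Since *proclotting enzyme* was chosen on brains, its fat body comparisons were tested. Most of the injected fat bodies came from the queens whose brains chose the gene, so these tests share queens with that choice. *Proclotting enzyme* was downregulated in SE as compared to HS queens (log2 fold change -1.40, standard error 0.29, adjusted p = 0.0151 by edgeR), where 3.69% of the 8201 genes tested were called. The call was lost by edgeR without HS queen H73 (-1.27, adjusted p = 0.0521) or without SE queen S83 (-1.36, adjusted p = 0.0517). The SF difference from HS queens, where 1.66% of genes were called, was -0.68 (standard error 0.28) and did not pass the threshold by edgeR (adjusted p = 0.232). As compared to V queens, *proclotting enzyme* differed by -0.98 in SF (standard error 0.25, adjusted p = 0.00643) and -1.70 among SE queens (standard error 0.26, adjusted p = 7.35e-05) and by -0.30 in HS queens (standard error 0.24, adjusted p = 0.505) by edgeR, so that the first pair were called and the last was not.

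SF and SE fat bodies were compared directly to ask whether semen and its fluid gave different levels. For *serine protease snake* and *antitrypsin*, these libraries also took part in the comparisons that chose the genes. The SE difference from SF queens was -0.51 (95% interval -1.27 to 0.25) for *serine protease snake*, -0.72 (-1.35 to -0.10) for *proclotting enzyme* and -0.23 (-0.79 to 0.33) for *antitrypsin*, on the log2 scale. None was called by edgeR (adjusted p = 0.899, 0.899 and 0.912). The share of the 8201 genes called there was 0% by edgeR, with 438 at an unadjusted p under 0.05 and 0 called by DESeq2 and by limma-voom. The *proclotting enzyme* interval, which is not adjusted for the number of genes, lay below 0.

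In the comparisons with V fat bodies the share of unaligned reads moved with injection. The share was 3.64 to 5.13% in V fat bodies and 49.3% or more in every injected one, so injection and that share cannot be told apart in comparisons with V queens. With the share as a covariate, the standard error of the log2 fold changes rose to between 0.83 and 1.5 and none of the 8 calls of these genes against V queens held in edgeR. The calls among all 8403 genes fell likewise under this covariate. The HS comparison had 641 before and 0 after, the SF comparison 2361 and 3, and the SE comparison 2804 and 1. The differences of *proclotting enzyme* were then -0.33, -1.01 and -1.74, close to those without the covariate, and those of *serine protease snake* (0.76, 2.88 and 2.24) and *antitrypsin* (-0.13, 1.13 and 0.76) were lower, with the sign turned for *antitrypsin* in HS queens. The summed fat body markers were lower in injected than in V fat bodies, apart from an overlap of SF queen SP1 (51182 CPM) with the lower V queens. That sum was almost all *vitellogenin* (*Vg*, 60711 ± 23999 CPM in V fat bodies, SD, n = 5), which was called lower in each injected group as compared to V queens. Of the 4 markers tested, the storage protein genes moved the other way, with *HEX70b* called higher in all injected groups, *Hex110* in SF and SE and *Hex70a* in SE queens, and the list medians of log2 fold change were 0.57, 0.74 and 1.23 in HS, SF and SE queens. *PPO*, the prophenoloxidase gene of hemocytes, ranged from 23.3 to 77.4 CPM in V, 28.3 to 105 in HS, 25.1 to 113 in SE and 30.2 to 514 in SF fat bodies. Their part in the results was not tested. Among injected queens, the shares overlapped between treatments, and the fat body difference of *proclotting enzyme* between SE and HS queens was called in all 11 alternatives other than single libraries left out, the share as a covariate included.

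In brains, the comparison between injected groups used the 11 libraries that the study kept, which left out SF queen SP16 and SE queen S83. The study left out brains with few Deformed Wing Virus reads after its first analysis had found no genes that differed between brains. With all 13 injected brains, edgeR called 0 genes in SF or SE as compared to HS and in SE as compared to SF. All 18 libraries were used against V queens. The fat bodies of these injected queens had chosen *serine protease snake* and *antitrypsin*, so brain tests of those genes share queens with that choice. *Serine protease snake* was sparse in brains, with 16 to 134 reads per library.

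*Serine protease snake* was at 2.18 CPM in the brain of HS queen H51, 1.14 in H53, 1.83 in H73, 0.973 in H74 and 1.67 in H75. It was at 7.10 CPM in SF queen SP1 and 9.34 in SP76, both above every HS and SE brain, and at 1.59 in SP16. In SE queens it was at 1.87 CPM in S24, 1.43 in S27, 3.05 in S29, 1.73 in S38 and 1.04 in S83. The SE and HS ranges overlapped. V brains had 3.55 CPM in C20, 4.67 in C49, 2.37 in C64, 1.31 in C68 and 1.39 in C77. They overlapped the HS brains at the lower end and stayed below SP1 and SP76.

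*Serine protease snake* was upregulated in the 2 SF brains kept as compared to HS brains (log2 fold change 2.44, standard error 0.31, adjusted p = 0.00284 by edgeR), where 7.93% of the 9030 genes tested were called. In SE as compared to SF brains it differed by -2.03 (standard error 0.31, adjusted p = 0.0209 by edgeR), where 2.24% of genes were called. SE and HS brains differed by 0.41 (standard error 0.28) and the gene was not called by edgeR (adjusted p = 0.465), with 1.24% of genes called. Both calls rested on SP1 and SP76: without SP76 the edgeR values were 2.22 (adjusted p = 0.0519) and -1.82 (adjusted p = 0.241), and with SP16 and S83 added they were 1.96 (adjusted p = 0.491) and -1.72 (adjusted p = 0.553). The SE to SF call was also lost by edgeR without S24 (adjusted p = 0.0624) or S38 (adjusted p = 0.0665), and with the unaligned share as a covariate (-1.78, adjusted p = 0.0641). With the sequencing lane as a covariate, neither was called by edgeR (2.50, adjusted p = 0.0656, and -2.27, adjusted p = 0.0836). That fit held 11 libraries from 6 lanes and left 3 residual degrees of freedom, and the fold changes stayed close to those without lane.

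Fat body markers, of which *Vg* made up most of the sum, were set beside this result. None of the 4 tested was called in SF as compared to HS brains by edgeR, and *Vg* was called lower in SE as compared to SF brains. The summed level was 10504 CPM in the brain of SP1 and 9665 CPM in that of SP76, as compared to 379 to 1324 CPM in the 4 SE brains kept and 1160.1 to 8941 CPM in HS brains. The highest HS sum was that of H73, with 1.83 CPM of *serine protease snake*. The highest sums of all brains were those of V queen C64, at 12664 CPM, and SE queen S83, at 11901 CPM, with 2.37 and 1.04 CPM of *serine protease snake*. The part of fat body RNA in the result was not tested.

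*Antitrypsin* was at 902 CPM in the brain of HS queen H51, 559 in H53, 749 in H73, 635 in H74 and 631 in H75. It was at 1028 CPM in SF queen SP1 and 1278 in SP76, above every HS brain, and at 304 in SP16. In SE queens it was at 784 CPM in S24, 740.4 in S27, 759.7 in S29, 699.7 in S38 and 267 in S83. Apart from S83, the SE values lay within the HS range. V brains split widely, with 1004 CPM in C20 and 1389.8 in C49 as compared to 291 in C64, 271 in C68 and 251 in C77.

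*Antitrypsin* was upregulated in the 2 SF brains kept as compared to HS brains (log2 fold change 0.73, standard error 0.15, adjusted p = 0.0234 by edgeR). The call was lost by edgeR without SP1 (0.88, adjusted p = 0.054), without SP76 (0.56, adjusted p = 0.221) or with SP16 and S83 added (0.32, adjusted p = 0.798). It was also lost by edgeR with the lane as a covariate (0.67, adjusted p = 0.194, 3 residual degrees of freedom) and with only the groups compared in the fit (0.72, adjusted p = 0.0684). The difference of SE from HS brains was 0.10 (standard error 0.13, adjusted p = 0.696 by edgeR) and that of SE from SF brains was -0.63 (standard error 0.16, adjusted p = 0.0635 by edgeR), and neither was called. With DESeq2 the latter was -0.64 and was called (adjusted p = 0.00373).

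*Proclotting enzyme* was at 126 CPM in the brain of HS queen H51, 128 in H53, 154 in H73, 168 in H74 and 125 in H75. It was at 78.7 CPM in SF queen SP1, 76 in SP76 and 145 in SP16, and in SE queens at 58.6 CPM in S24, 45.6 in S27, 44.9 in S29, 60.1 in S38 and 141 in S83. The SF and SE brains kept were all below all HS brains, whereas SP16 and S83 lay within the HS range. V brains had 39.3 CPM in C20, 44.3 in C49, 149.9 in C64, 161 in C68 and 145 in C77. The log2 fold changes that chose the gene were -0.86 (standard error 0.15) in SF and -1.42 (standard error 0.12) in SE as compared to HS brains, which became -0.49 and -1 with SP16 and S83 added. SE brains were at -0.56 (standard error 0.15) as compared to SF brains, which edgeR did not call (adjusted p = 0.0692) and DESeq2 did (-0.57, adjusted p = 0.00867). These are the SE and SF brains on which the gene was chosen, so this is no separate test.

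**Figure D2:**
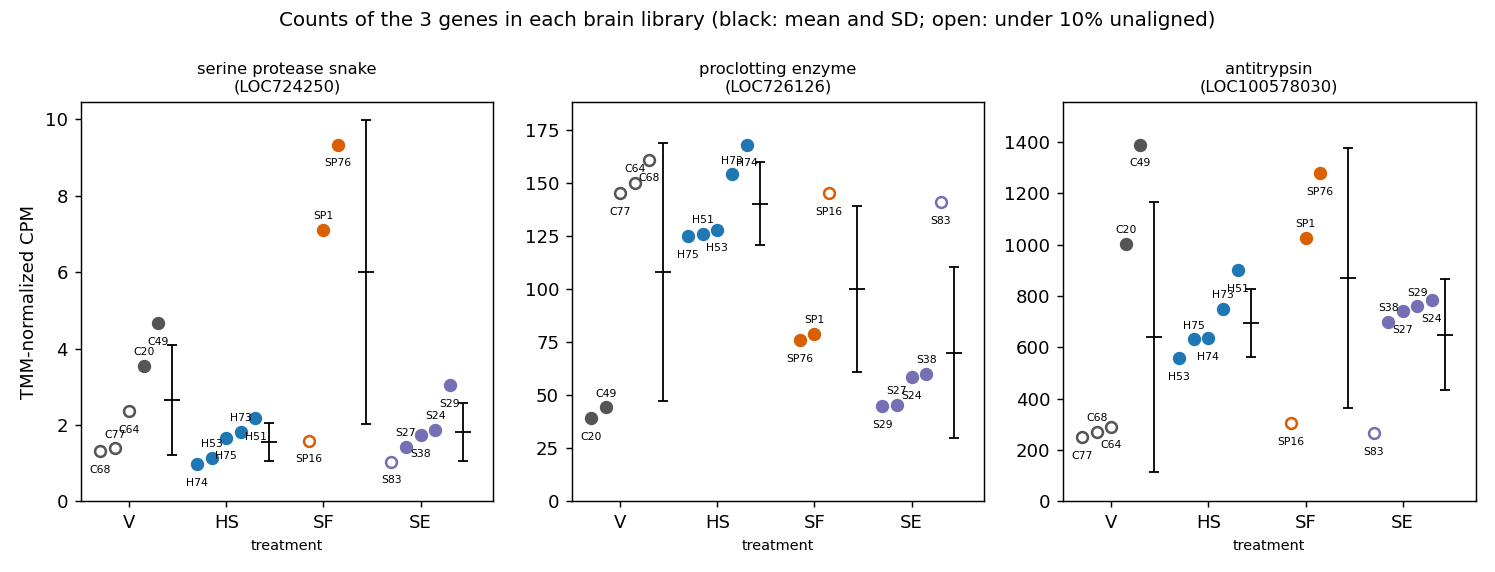
TMM-normalized CPM of each gene (linear axis from 0) in the 18 brain libraries by treatment, 1 point per queen, with group mean and SD in black and open points for the 5 brains with 4.05 to 6.08% unaligned reads. *Antitrypsin* is at 251 to 304 CPM in all open points and at 559 CPM or more in all filled ones.

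The levels in brains were also set beside the share of unaligned reads. *Antitrypsin* was at 251 to 304 CPM in the 5 brains with 4.05 to 6.08% unaligned reads and at 559 to 1389.8 CPM in the 13 with 22.1 to 53.6%, with no overlap. How many of all genes separated these brains likewise is not given here. None of the 5 brains was from an HS queen, and they differed little among themselves, at 277 ± 20.8 CPM (SD, n = 5). *Proclotting enzyme* was at 141 to 161 CPM in the same 5 brains. Of the other 13, the 8 V, SF and SE brains with a share of 25.1 to 39.7% held 39.3 to 78.7 CPM, whereas the 5 HS brains held 125 to 168 CPM at a share of 22.1 to 53.6%. Brains with a high share thus had high *antitrypsin* in every treatment, but low *proclotting enzyme* in V, SF and SE queens alone. HS queens had no brain with a low share to set against these. *Serine protease snake* overlapped between the brains with a low share (1.04 to 2.37 CPM) and the others (0.973 to 9.34 CPM).

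**Figure D3:**
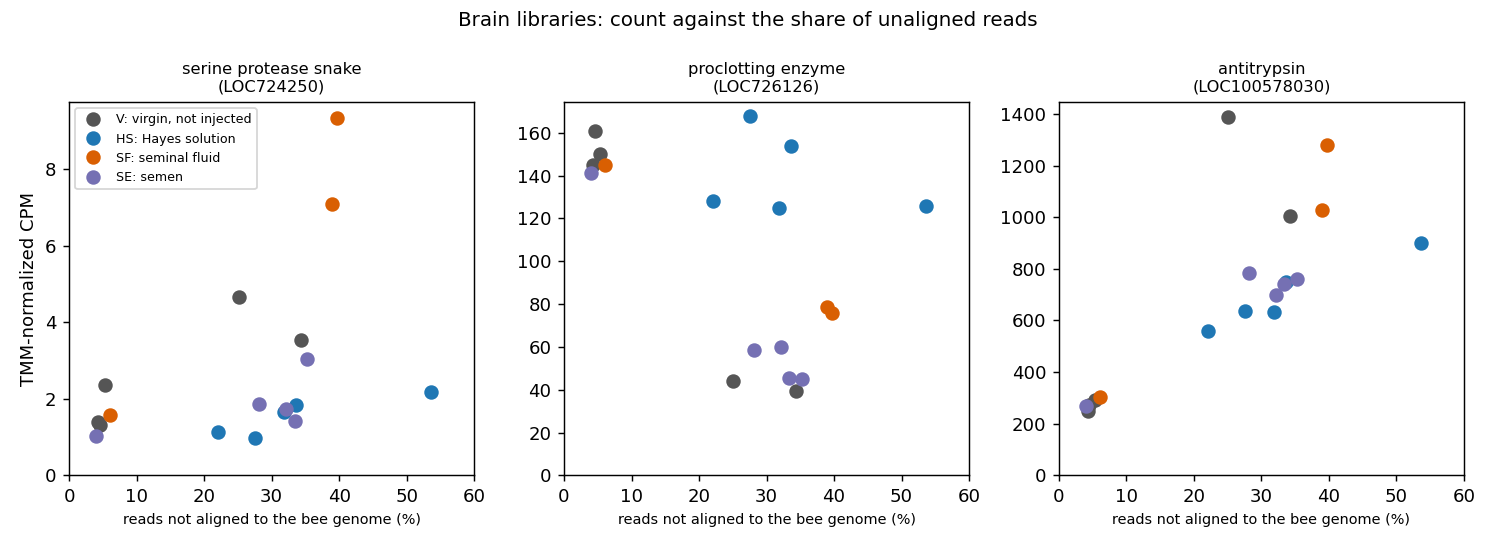
TMM-normalized CPM of each gene in the 18 brain libraries (vertical axis) against the unaligned share of reads in percent (horizontal axis), colored by treatment. The 5 HS brains keep 125 to 168 CPM of *proclotting enzyme* at 22.1 to 53.6% unaligned reads, beside V and SE brains at 39.3 to 60.1 CPM.

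With all 18 brains in edgeR, none of these genes was called in HS, SF or SE as compared to V queens (adjusted p between 0.737 and 0.999), and the share of the 9057 genes called was 0% in each. An unadjusted p under 0.05 was reached by 522, 364 and 670 genes, and DESeq2 called 8, 0 and 2 and limma-voom 0, 0 and 0. The log2 fold changes were -0.79, 1.18 and -0.55 for *serine protease snake*, 0.38, -0.11 and -0.62 for *proclotting enzyme*, and 0.12, 0.44 and 0.02 for *antitrypsin*, in HS, SF and SE brains. For *proclotting enzyme* these comparisons share HS, SF and SE libraries with those that chose it. An alternative chosen after seeing the data left out the 5 brains with a low share, which left V queens C20 and C49, and its values are given as a description. As compared to those V brains, HS brains were at 1.75 on the log2 scale for *proclotting enzyme*, -1.44 for *serine protease snake* and -0.78 for *antitrypsin*. SE and SF brains were at 0.32 and 0.89 for *proclotting enzyme*. The share of unaligned reads and the other differences between these brains cannot be told apart, and their part in the result was not tested.

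Virgin levels were also compared between tissues of the same 5 queens. *Serine protease snake* was at 2.66 ± 1.45 CPM in V brains and 2.90 ± 1.5 in V fat bodies, *proclotting enzyme* at 108 ± 60.6 and 86.9 ± 6.65, and *antitrypsin* at 641 ± 525 and 840.4 ± 139 (SD, n = 5 each). These CPM values were scaled within each tissue, whereas the test scaled the V libraries of both tissues together. Without the queen in the fit, brain as compared to fat body differed by -0.62, -0.17 and -0.88 on the log2 scale. None was called by edgeR (adjusted p = 0.199, 0.68 and 0.105), where 81.3% of 9082 genes were called. That fit ignores that both tissues came from the same queens. For *proclotting enzyme* the sign thus depended on the scaling, and its log2 fold change was 0.34 with library sizes alone. With the queen as a block, which keeps the pairing, *serine protease snake* (-0.63, adjusted p = 0.0482) and *antitrypsin* (-1.27, adjusted p = 0.0267) were called lower in brain by edgeR. *Proclotting enzyme* was not called in that fit. V queens C20 and C49 had the highest levels of *serine protease snake* among V queens in both tissues. For *antitrypsin* they were the highest of the V brains, whereas their fat bodies, at 834 and 883 CPM, lay within the range of the other V queens.

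**Figure D4:**
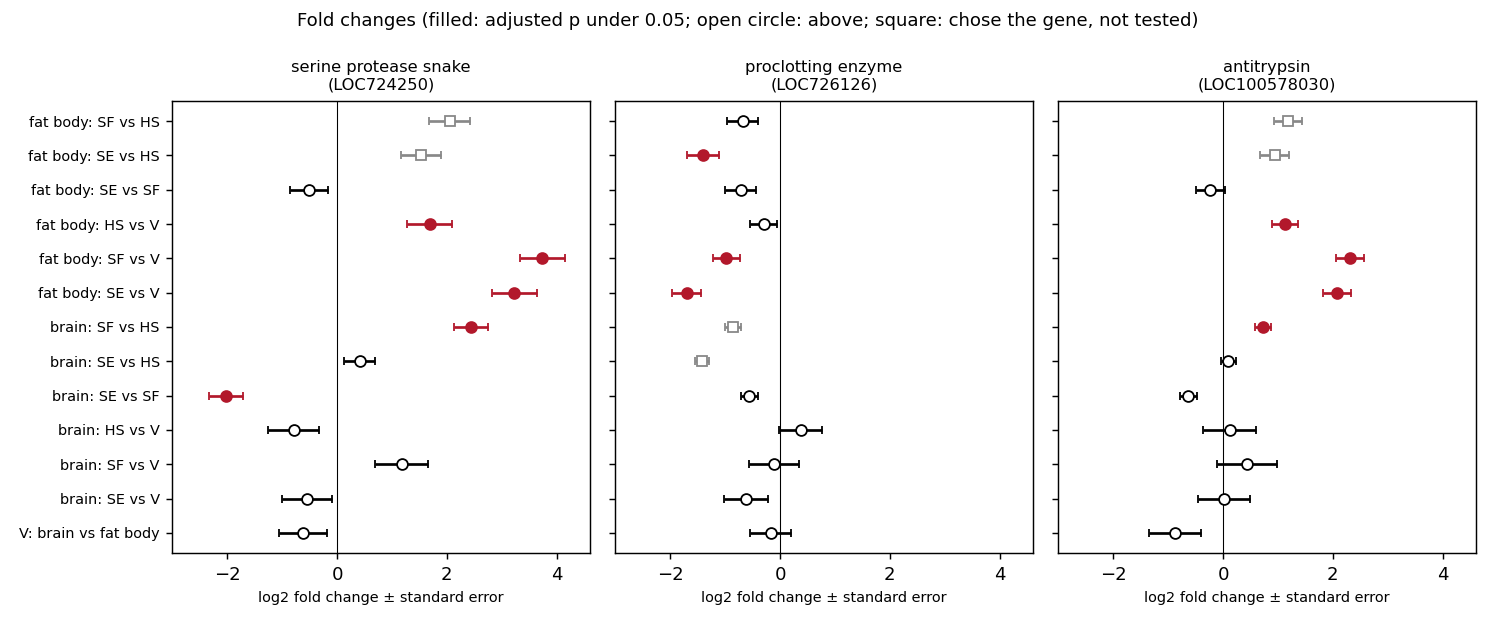
Log2 fold changes with standard error (horizontal axis) of each gene in 13 comparisons (rows), with filled red circles for an adjusted p under 0.05 by edgeR, open circles for others and grey squares for the comparisons that chose the gene, which were not tested. *Serine protease snake* and *antitrypsin* are above 0 in all fat body comparisons with V or HS queens, at 0.94 to 3.74, and *proclotting enzyme* is below 0 in them, at -0.30 to -1.70.

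The genes whose log2 CPM was most like that of each gene were found among all genes retained in the tissue where it was chosen. Over the 20 fat bodies, *serine protease snake* was most like *LOC100578839* (Pearson's r = 0.948), *LOC725832* (0.944) and *antitrypsin* (0.938) among 8402 genes. *Antitrypsin* was most like *LOC552003* (0.97), *LOC725832* (0.968) and *LOC100578839* (0.959). *Serine protease snake* and *proclotting enzyme* had r = -0.76 there. *LOC100578839* had a mean of 17.2 CPM in V, 35.1 in HS and 68.8 in both SF and SE fat bodies. Over the 18 brains, *proclotting enzyme* was most like *LOC410187* (0.957), *LOC409025* (0.952) and *papilin* (*LOC413021*, 0.95). These values describe the libraries, which share the treatments and the share of unaligned reads. They are drawn from the libraries in which the genes were chosen, and *serine protease snake* and *antitrypsin* were both chosen for high values in the same SF and SE fat bodies, so their likeness is no separate result.

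The genes next to *serine protease snake* were called in some of the same comparisons. *LOC724208*, which the study lists as *serine protease snake-like*, ended 2293 bp to the left, and its mean level was 616 ± 97.3 CPM (V), 1533 ± 425 (HS), 3144 ± 1092 (SF) and 2418 ± 387 (SE) in fat bodies (SD, n = 5 each). *LOC724208* was called higher in SF as compared to HS queens in fat bodies (log2 fold change 1.04, adjusted p = 0.0269 by edgeR) and brains (1.56, adjusted p = 0.017 by edgeR). *LOC724295*, 1804 bp to the right, was called higher in the same comparisons (0.99, adjusted p = 0.00527, and 0.78, adjusted p = 0.0297, by edgeR). In SE as compared to HS fat bodies, *LOC724295* was called (0.71, adjusted p = 0.0296 by edgeR) and *LOC724208* was not (0.66, adjusted p = 0.0907 by edgeR). In SE as compared to HS brains *LOC724208* was at 0.01 and *LOC724295* at -0.12, and neither was called by edgeR (adjusted p = 0.992 and 0.692). Sequence shared between neighbors was not examined, so how the counting divided reads between *serine protease snake* and *LOC724208* is uncertain. *LOC726069*, 29 bp from *proclotting enzyme*, was at -0.08 in SF and -0.25 in SE as compared to HS fat bodies and was not called in either by edgeR (adjusted p = 0.816 and 0.248). *LOC726323*, on the other side at 1440 bp, had 581 ± 54.1 CPM in V and 1214 ± 152 CPM in HS fat bodies (SD, n = 5 each) and was called higher in HS queens (log2 fold change 1.06, adjusted p = 7.59e-05 by edgeR), the comparison in which *proclotting enzyme* was at -0.30 and was not called.

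Among 12 other genes of the Toll, Imd and melanization pathways, 10 had enough reads in fat bodies and brains. In fat bodies, none was called between injected groups, and the list medians of log2 fold change were 0.32 in SF and -0.04 in SE as compared to HS queens, beside 0 and 0.02 over all genes. As compared to V queens, 6 of 10 were called higher in SF fat bodies, where 28.1% of all genes were called in either direction, among them *Imd*, the adaptor of the Imd pathway (log2 fold change 0.92), *Def1*, which encodes the antimicrobial peptide defensin (1.62), and *cact1*, named for the Toll pathway inhibitor Cactus of *Drosophila* (1.67). In SE fat bodies 3 were called higher, *Imd* at 0.84 and *Def1* at 1.26 among them, and *18-w*, a Toll family receptor, was called lower (-0.57), which is 4 of 10 beside 33.4% of all genes. In HS fat bodies 2 were called higher beside 7.63% of all genes, among them *Imd* (0.51). In brains, *cact1* was called higher in both SF (0.70) and SE (0.33) as compared to HS queens, 1 of 10 beside 7.93% and 1.24% of all genes, and *Def1* was called lower in SE as compared to SF queens (-2.84), 1 of 10 beside 2.24%. As compared to V fat bodies, the list medians were 0.37, 0.61 and 0.14 in HS, SF and SE queens, beside 0, 0.01 and 0.03 over all genes. With only 10 genes, whether the list differs from all genes was not tested. *SP34*, the protease of that list, had too few reads to be tested in these fits.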

How the data were processed

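The members and lists were chosen with earlier results of these data known. The authors trimmed reads with cutadapt, aligned them to Amel_HAv3.1 with HISAT2 and deposited raw counts of reads assigned by HTSeq to 12332 genes. Lanes, tissue, treatment and queen came from the labels and the sample list, and both tissues of a queen were paired by the queen in her labels. Deviations from the group mean of V queens correlated between the tissues of a queen at -0.11 to 0.15 over genes. The 5 summary rows of unassigned reads were left out of library sizes and gave the unaligned share.

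The counts went into edgeR 4.0.16 under R 4.3.3 (filterByExpr at a minimum count of 20, TMM, quasi-likelihood test, Benjamini-Hochberg adjustment over all genes, threshold 0.05). Separate fits held the 15 injected fat bodies, all 20 fat bodies, 11 injected brains, all 18 brains, and the 10 V libraries. CPM likeness used log2 with a prior count of 2. Within a tissue, replicates were separate queens of 1 sister group, and each test weighed a group difference against the spread between them. The 10 V libraries held both tissues of the same queens, and the pairing entered only where the queen was a block. The steps were tested on simulated data. The alternatives were DESeq2 1.42.0, limma-voom (limma 3.58.1), other scalings, filters, covariates and sample sets, and each library left out. Over 73 pairs of replicates, the smallest chi-squared per degree of freedom was 16.3, so none was counted as a copy. The genes named are the members, their 3 most alike genes, their neighbors and called list genes. The list was made from gene symbols after the counts were seen, since the reference table used here holds no descriptions. No sequences are shown, since none were used here.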

Additional observations from a re-analysis of the deposited data

Results flagged for a closer look

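Of 21 groups of 5 libraries examined for a library far from the rest by Dixon's ratio, which chance flags in about 1 of 20 groups, 3 had one. The brain of SE queen S83 was at 141 CPM of *proclotting enzyme*, where the other SE brains were at 44.9 to 60.1 CPM. The same brain was at 267 CPM of *antitrypsin*, where the others were at 699.7 to 784 CPM, and it is the SE brain with 4.05% unaligned reads. The fat body of HS queen H74 was at 3681 CPM of *antitrypsin*, where the other HS fat bodies were at 1173 to 1594 CPM, and it had the highest share of unaligned reads of the HS fat bodies, 68.4%. The brain of H74, at 635 CPM, was within the range of the other HS brains.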

How the results depend on the processing

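Over 39 log2 fold changes, 392 of 408 values under other settings and 589 of 606 with a library left out kept their direction. With the unaligned share as a covariate in fat bodies, HS, SF and SE as compared to V queens were at 0.76, 2.88 and 2.24 for *serine protease snake*, and -0.13, 1.13 and 0.76 for *antitrypsin*, and SF and SE at -1.01 and -1.74 for *proclotting enzyme*, none called. That share is confounded with injection there. In brains as compared to V queens it gave -1.62 for *serine protease snake* and 1.38 for *proclotting enzyme* in HS (both called), 0.56 for *proclotting enzyme* in SF, and -0.62, -0.25 and -0.43 for *antitrypsin*. For brain as compared to fat body it gave -1.24, 0.34 and -2.09 in the order snake, proclotting and antitrypsin (all called), and for *serine protease snake* in SE as compared to SF brains -1.78 (not called).

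Without the 5 brains with a low share, *proclotting enzyme* was at 1.75, 0.89 and 0.32, *antitrypsin* at -0.78, -0.05 and -0.68, and *serine protease snake* in HS at -1.44, as compared to V brains. Without SP16 and S83 alone, *serine protease snake* in SF as compared to V brains was at 1.65 (called). With SP16 and S83 added to the injected brains, *proclotting enzyme* was at -0.49 in SF and -1 in SE as compared to HS queens, *antitrypsin* at 0.32 and -0.10 in the same order, and *serine protease snake* at 1.96 in SF and -1.72 in SE as compared to SF queens. With all 18 brains these were the same values but for 1.97. With the lane as a covariate, SF as compared to HS brains were at 2.50 for *serine protease snake* and 0.67 for *antitrypsin*, neither called. SE as compared to SF brains were at -2.27 for *serine protease snake*, not called. *Proclotting enzyme* was at -0.64 in SF as compared to HS brains, which chose the gene and was not tested. It was at 0.27 in SF as compared to V brains. The lane fit between injected brains left 3 residual degrees of freedom. With only the groups compared, *antitrypsin* was at 0.72 in SF as compared to HS brains (not called) and -0.63 in SE as compared to SF brains (called). DESeq2 called -0.57 for *proclotting enzyme* and -0.64 for *antitrypsin* in SE as compared to SF brains. Limma-voom gave 0.09 for *proclotting enzyme* in SF as compared to V brains and called -1.22 for *antitrypsin* between tissues, and library sizes alone gave 0.34 for *proclotting enzyme* there. The queen as a block (replicate block) called -0.63 for *serine protease snake* and -1.27 for *antitrypsin* and changed no other call of these genes. The cause of these changes was not tested.

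With each library left out, *serine protease snake* ranged from 1.32 to 2.01 in HS as compared to V fat bodies, 2.22 to 2.62 in SF as compared to HS brains and -2.28 to -1.82 in SE as compared to SF brains. *Proclotting enzyme* ranged from -1.58 to -1.23 in SE as compared to HS fat bodies, -0.64 to -0.50 in SE as compared to SF brains, -0.48 to 0.08 in SF as compared to V brains and -0.35 to 0.06 between tissues. *Antitrypsin* ranged from 0.56 to 0.88 in SF as compared to HS brains, -0.09 to 0.61 in HS and -0.19 to 0.52 in SE as compared to V brains, and -1.37 to -0.67 between tissues. Under the other settings, genes called among all genes ranged from 5 to 345 in SF and 64 to 666 in SE as compared to HS fat bodies, from 0 to 1180 and 0 to 487 in brains, and from 0 to 789 in SE as compared to SF brains. As compared to V queens they ranged from 0 to 954, 3 to 2613 and 1 to 3040 in HS, SF and SE fat bodies, and 0 to 110, 0 to 221 and 0 to 108 in brains. With each library left out these ranges were, in the same order, 41 to 377, 76 to 612, 39 to 756, 42 to 132, 0 to 353, 344 to 967, 1895 to 2572, 2221 to 3105, 0 to 1, 0 to 132 and 0 to 1. A minimum of 20 reads in every library left *serine protease snake* untested in brains, where its depth of 16 to 134 reads limits the precision.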
